A study of Mus musculus with 24 samples.

Results

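The constitutive proteasome is encoded here by 34 genes, chosen by name: the 7 alpha (Psma1 to Psma7) and 7 beta (Psmb1 to Psmb7) subunits of the 20S core, 17 subunits of the 19S cap (Psmc1 to Psmc6 and 11 Psmd genes) and the 3 PA28 activator genes (Psme1 to Psme3). All 34 had a probe among the 24325 gene symbols of the array, and all 34 were among the 13051 genes tested. Their transcripts were read in the blood of 129S/J males, drawn by heart puncture 24 h after X-rays or sham exposure and depleted of globin RNA in every group. Wild-type mice received 0 Gy (5 arrays), 6 Gy (5 arrays) or 8.8 Gy (4 arrays), and Parp1-/- mice, which lack a poly(ADP-ribose) polymerase active at DNA breaks, received 0 Gy (5 arrays) or 6 Gy (5 arrays). Each array held the blood of 1 mouse, and per the series' design text the doses 8.8 Gy in wild type and 6 Gy in Parp1-/- are those that kill 50% of mice within 30 days. The Parp1 allele was not further described, and blood is a mixture in which fewer cells of a type and less RNA per cell cannot be told apart.

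The 26S proteasome degrades proteins that carry ubiquitin chains. Its barrel-shaped 20S core holds the proteolytic sites in the beta rings, behind a gate formed by the alpha rings. The 19S cap recognises ubiquitin, unfolds the substrate with a ring of ATPases and feeds it into the core, whereas PA28 rings open the core without ubiquitin or ATP. Reticulocytes and leukocytes both contain proteasomes, and in lymphoid cells or under interferon the catalytic beta subunits are exchanged for those of the immunoproteasome.

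Levels are log2 signals of the brightest probe of a gene relative to the 75th percentile of its array, so a difference of 1 is a 2-fold change and levels of different genes are not ranked. Of the 34 genes, 32 were well above background on all 24 arrays. The exceptions were Psmd14, well above background on 22 arrays, and Psmb5, which had no value on Parp1-/- 6 Gy replicate 5 because its spot was marked as an outlier by the scanner software. The pooled SD within groups had a median of 0.480 over the 34 genes and of 0.533 over all genes tested. It ran from 0.186 for Psmd13, a cap subunit, to 0.688 for Psma7, an alpha subunit.

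Several features of the arrays stand beside the results. Scan day 4 held every sham-exposed wild-type array and day 3 every irradiated wild-type array, so dose and scan day cannot be told apart there. The Parp1-/- 0 Gy arrays were scanned on days 1 and 2, and the Parp1-/- 6 Gy arrays on days 1 (replicate 5), 3 (replicates 1 to 3) and 4 (replicate 4). Wild-type 8.8 Gy replicate 2 and Parp1-/- 6 Gy replicate 1 were nearly equal: their log2 difference over 7557 genes had an SD of 0.168, against 0.271 for the next closest and a median of 0.921 over 276 pairs of arrays. Parp1 itself was well above background on Parp1-/- 6 Gy replicate 1 (level -1.67) and not on wild-type 8.8 Gy replicate 4 (level -3.94), which goes against both labels. In wild type it was well above background on 5 of 5 arrays at 0 Gy, 3 of 5 at 6 Gy and 3 of 4 at 8.8 Gy. The wild-type 6 Gy arrays ran from -2.33 to -1.27, so the level on 8.8 Gy replicate 4 was the lowest in wild type. The Parp1-/- 6 Gy arrays ran from -5.01 to -1.67. Results below use all arrays, and counts without the doubted arrays are given beside them.

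Of the blood cell markers, the erythroid and reticulocyte list (16 of 18 genes measured, each well above background on at least 1 array) averaged 5.20, 3.83 and 4.46 on the wild-type arrays at 0, 6 and 8.8 Gy, and 5.86 and 4.54 on the Parp1-/- arrays at 0 and 6 Gy. The highest array was Parp1-/- 0 Gy replicate 3, at 7.14. The list names globin genes, whose RNA was depleted, and the part of the depletion in the score was not tested. In the same order, B cell markers averaged 0.72, -1.03, -1.59, 0.45 and -1.78, T cell markers 3.83, 2.49, 1.76, 3.64 and 1.89, and platelet markers 4.2, 4.65, 5.49, 4.68 and 5.81. Hepatocyte markers, which define no blood cell, ranged from -2.97 to 6.76 over the arrays and spanned most of that range in every group. Heart muscle markers ranged from -4.01 to 3.43 and Kupffer cell markers from -3.32 to 2.54. They were highest on Parp1-/- 6 Gy replicates 3 (heart muscle) and 4 (Kupffer cell), and their part in the levels below was not tested.

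The probes that carried the main changes are shown here, in the orientation printed by the array files, since each change rests on 1 probe. The Psmd8 and Psmd11 probes belong to subunits of the same cap lid and moved in opposite directions after irradiation of Parp1-/- mice. On mm9 they span chr7:29961170-29962121 (minus strand) and chr11:80283406-80283920 (plus strand), longer than their 60 bases, so both cross an exon junction. Of the Psme3 probe (chr11:101184289-101184348, plus strand) bases 16 to 45 are shown, with dinucleotide repeats of at least 3 units in capitals.
Psmd8 probe: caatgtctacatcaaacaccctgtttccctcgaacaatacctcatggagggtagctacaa
Psmd11 probe: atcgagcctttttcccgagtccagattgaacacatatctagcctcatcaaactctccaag
Psme3 probe, bases 16 to 45: ACgtgcacaTGTGTGTGTGTGTtcGTGTGT
Such repeats made up 37 of the 60 bases of the Psme3 probe. They were present in 4 of the 34 probes, the other 3 being those of Psma5 (10 bases), Psma2 (7 bases) and Psmd12 (6 bases). Their part in the Psme3 signal was not tested.

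Most of the 34 genes did not pass the test after irradiation. In wild type at 6 Gy, 2 of the 34 fell and 0 rose (limma, Benjamini-Hochberg adjusted p under 0.05 over all genes tested), where 26.4% of all genes tested passed (10.7% lower, 15.8% higher). In wild type at 8.8 Gy, 0 of 34 passed, where 16.1% of all genes did (8.87% lower, 7.26% higher); 5 of the 34 had an unadjusted p under 0.05. In Parp1-/- mice at 6 Gy, 3 fell and 2 rose, where 22.9% of all genes passed (10.6% lower, 12.2% higher). The median log2 difference of the 34 genes was -0.25 in wild type at 6 Gy (0.05 over all genes), -0.48 in wild type at 8.8 Gy (0.04) and 0.01 in Parp1-/- at 6 Gy (-0.08). Below 0 lay 28, 31 and 17 of the 34 differences, in that order.

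The wild-type counts depended on what the arrays were set against. Centring each array on its median moved the median of all genes to -0.78 in wild type at 6 Gy. Of the 34 genes 23 then fell (median -1.07, where 48.4% of all genes passed). In the other irradiation comparisons 2 and 3 passed, where 18.5% and 21.2% of all genes did. With the erythroid score as a covariate, an alternative chosen after seeing the data, 21 of the 34 fell in wild type at 6 Gy, 22 fell and 1 rose at 8.8 Gy, and 5 fell and 1 rose in Parp1-/- at 6 Gy, where 49.7%, 38.3% and 22.9% of all genes passed. With slide as a fixed block 0 of the 34 passed in these comparisons, where 0%, 0% and 0.375% of all genes did, and a fixed block for the day of scanning also left 0, where 0.123%, 0.176% and 0.414% did, so these counts say nothing of the 34 genes in particular. With slide as a random block 2, 0 and 3 passed, where 22.7%, 12.7% and 19.9% of all genes did.

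**Figure D1:**
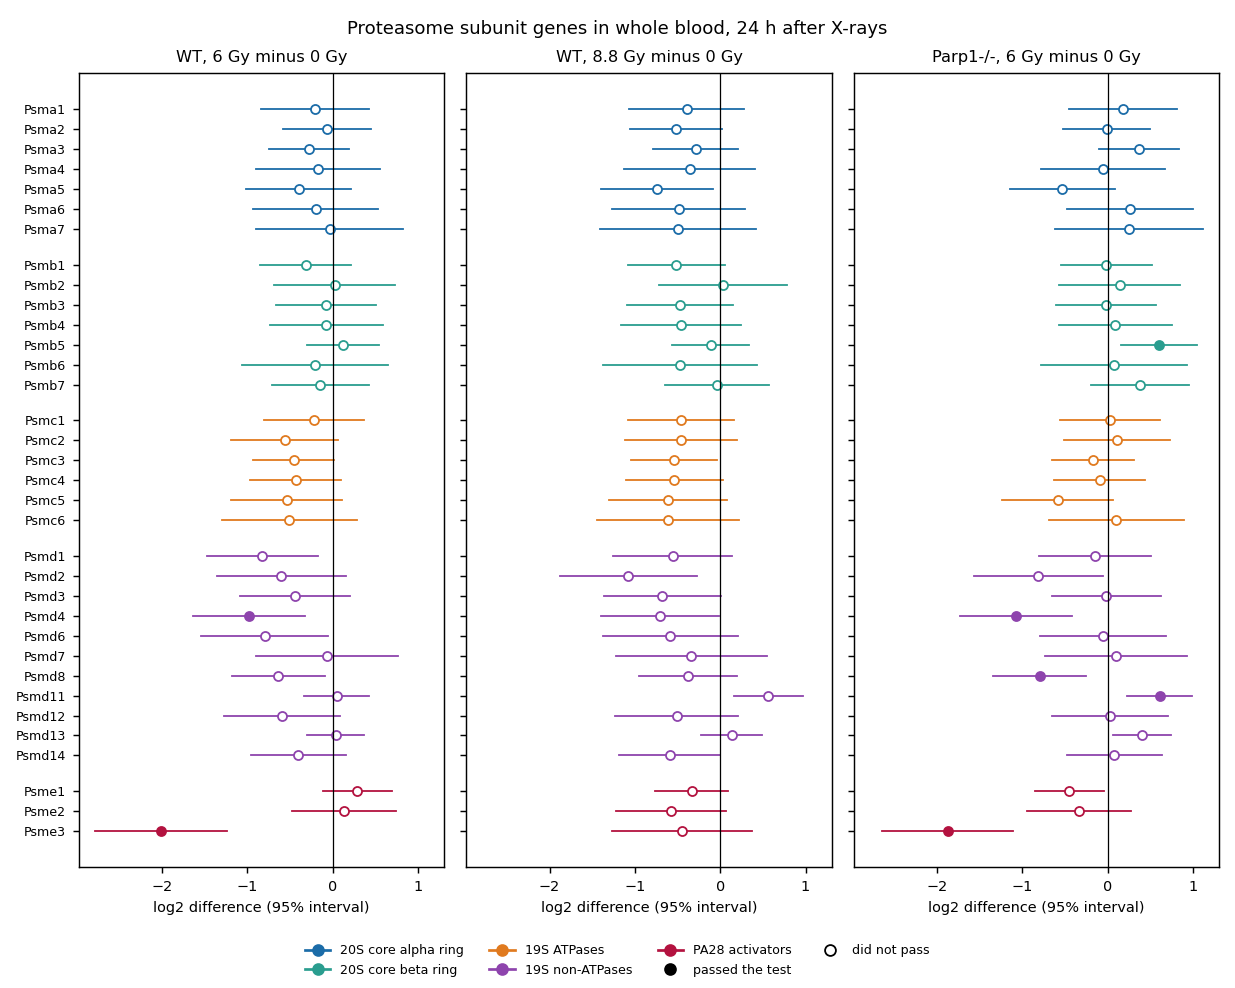
Log2 difference of each of the 34 genes from the unirradiated group of its genotype, with its 95% interval, coloured by part of the proteasome; filled points passed the limma test. Most points of the wild-type panels lie left of 0 with intervals that cross it, and Psme3 at -2.01 and -1.88 lies farthest from 0 in the outer panels.

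A p that misses the threshold does not show that a gene kept its level, so the intervals matter. The 95% interval of the difference stayed within 1 log2 unit of 0 for 21 of the 34 genes in wild type at 6 Gy, for 8 at 8.8 Gy and for 26 in Parp1-/- at 6 Gy. Groups did not overlap for 3, 3 and 5 of the 34 genes, against 18.5%, 18.1% and 15.4% of all genes tested. Without Parp1-/- 6 Gy replicate 1, or without it and either wild-type 8.8 Gy replicate 2 or replicate 4, the counts of calls were 2, 0 and 4. Of all genes 24.7% to 26%, 8.85% to 15.3% and 18.3% to 20.2% passed in these fits.

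In the alpha ring, which forms the outer rings and gate of the core, 0 of 7 genes passed in any irradiation comparison. Of all genes tested 26.4%, 16.1% and 22.9% passed in wild type at 6 and 8.8 Gy and Parp1-/- at 6 Gy. In wild type at 6 Gy the alpha gene differences ran from -0.40 for Psma5 to -0.03 for Psma7, and all 7 were below 0. In wild type at 8.8 Gy they ran from -0.74 (Psma5) to -0.29 (Psma3). Psma5 was the alpha gene closest to the threshold there, with groups that did not overlap and an adjusted p of 0.113. In Parp1-/- at 6 Gy the range was -0.53 (Psma5) to 0.37 (Psma3), with 4 of 7 above 0.

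In the beta ring, 0 of 7 genes passed in wild type at either dose, with differences from -0.32 (Psmb1) to 0.12 (Psmb5) at 6 Gy and from -0.52 (Psmb1) to 0.03 (Psmb2) at 8.8 Gy. In Parp1-/- mice 1 of 7 (14.3%) passed, where 22.9% of all genes did, and it rose: Psmb5, which carries the chymotrypsin-like site of the core. Psmb5 stood at 5.11, 4.40, 4.76, 5.01 and 5.12 on the Parp1-/- 0 Gy arrays and at 5.12, 5.73, 5.47 and 5.61 on the 4 Parp1-/- 6 Gy arrays with a value. Every 6 Gy array was at or above the highest 0 Gy array, though the lowest 6 Gy array, the doubted replicate 1, exceeded it only in the third decimal.

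The Psmb5 difference was 0.60 ± 0.215 (SE), a 1.52-fold rise, with an adjusted p of 0.0485. It passed in 7 of the 24 fits that left out 1 array, with differences from 0.48 to 0.72. Median centring (adjusted p = 0.115), no filter on background (adjusted p = 0.103) and slide as a random block (adjusted p = 0.0558) also ended the call. The second Psmb5 probe, dimmer and with a value on every array, also gave 0.60. In wild type Psmb5 read 5.16, 5.43, 4.81, 5.61 and 5.42 at 0 Gy, 5.78, 5.39, 5.33, 4.99 and 5.54 at 6 Gy, and 5.39, 4.97, 5.09 and 5.24 at 8.8 Gy. These wild-type groups overlapped, with differences of 0.12 ± 0.203 and -0.11 ± 0.215. On the second probe the wild-type differences were 0.41 and 0.27. On the brighter probe the difference between the genotypes' responses was 0.48 ± 0.296 with an adjusted p of 0.322.

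The Psmb5 promoter is shown because proteasome genes are known targets of the transcription factors NRF1 and NRF2, whose antioxidant response element has the core TGACNNNGC. The sequence is that of RefSeq on GRCm38.p6, chr14:54617946-54618245 on the minus strand, 250 bases before to 50 after the start, with the matching letters in capitals.
Psmb5 promoter: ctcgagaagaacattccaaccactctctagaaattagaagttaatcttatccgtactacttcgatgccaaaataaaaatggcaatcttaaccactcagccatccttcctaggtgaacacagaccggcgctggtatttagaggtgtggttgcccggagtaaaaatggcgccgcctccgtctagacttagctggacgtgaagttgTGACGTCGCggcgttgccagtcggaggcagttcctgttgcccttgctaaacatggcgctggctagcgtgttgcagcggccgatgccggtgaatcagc
The letters TGACG at its left end are also the half-site of the cyclic AMP response element. TGACNNNGC, searched on both strands, was in 4 of the 28 promoters of the 34 genes found in the RefSeq table (14.3%; Psmb5, Psmb6, Psmc6 and Psmd12) and in 14.0% of 27025 promoters of the same length. CCAAT was in 11 of the 28 (39.3%) and in 41.1% of all. A match of letters is not a binding site.

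The other catalytic subunits, Psmb6 (caspase-like) and Psmb7 (trypsin-like), did not pass in any comparison. Psmb6 read 4.92, 3.67, 3.51, 3.50 and 4.28 in wild-type 0 Gy, 4.03, 2.82, 3.13, 4.0 and 4.86 at 6 Gy, and 2.81, 3.25, 4.30 and 3.66 at 8.8 Gy. In Parp1-/- it read 4.64, 3.21, 2.67, 3.54 and 3.44 at 0 Gy and 3.11, 3.65, 4.35, 3.79 and 2.97 at 6 Gy. All these groups overlapped, and the differences after irradiation were -0.21 ± 0.411, -0.47 ± 0.436 and 0.07 ± 0.411. Psmb7 read 2.31, 1.20, 1.56, 1.13 and 1.72 in wild-type 0 Gy, 0.68, 1.51, 1.49, 1.51 and 2.01 at 6 Gy, and 1.22, 1.28, 2.32 and 1.37 at 8.8 Gy. In Parp1-/- it read 1.23, 0.97, 1.47, 1.53 and 1.33 at 0 Gy and 1.32, 2.01, 2.01, 1.94 and 1.15 at 6 Gy. The groups overlapped in each comparison, with differences of -0.14 ± 0.277, -0.03 ± 0.294 and 0.38 ± 0.277.

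Each of these 3 subunits has an interferon-inducible counterpart that takes its place in the immunoproteasome: Psmb8 for Psmb5, Psmb9 for Psmb6 and Psmb10 for Psmb7. Psmb8 read 2.75, 3.36, 3.05, 2.87 and 2.72 in wild-type 0 Gy, 3.89, 2.76, 2.81, 3.47 and 3.66 at 6 Gy, and 2.48, 2.16, 2.78 and 2.23 at 8.8 Gy. It read 2.28, 2.87, 1.60, 3.17 and 3.18 in Parp1-/- 0 Gy and 2.13, 3.16, 2.24, 2.68 and 2.68 at 6 Gy. The Psmb8 groups overlapped, and 3 of the 5 wild-type 6 Gy arrays lay above every unirradiated wild-type array. Psmb9 read 2.31, 2.58, 2.66, 2.23 and 2.35 in wild-type 0 Gy, 3.91, 2.26, 2.49, 3.51 and 3.46 at 6 Gy, and 2.57, 2.11, 2.54 and 2.28 at 8.8 Gy. It read 1.71, 2.50, 1.51, 2.58 and 2.75 in Parp1-/- 0 Gy and 2.05, 2.92, 2.11, 2.47 and 2.35 at 6 Gy. Again wild-type 6 Gy replicates 1, 4 and 5 were high and the other 2 lay within the 0 Gy range. Psmb10 read 3.68, 4.15, 3.70, 3.75 and 3.81 in wild-type 0 Gy, 4.53, 2.61, 3.11, 4.21 and 4.93 at 6 Gy, and 2.72, 2.32, 3.36 and 3.09 at 8.8 Gy. It read 3.15, 3.55, 2.54, 3.97 and 4.11 in Parp1-/- 0 Gy and 2.26, 3.45, 3.13, 3.71 and 2.68 at 6 Gy. For Psmb10 the wild-type 8.8 Gy arrays all lay below the 0 Gy arrays, while the other groups overlapped.

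None of the 3 immunoproteasome genes passed the limma test in any of the 7 comparisons, and the lowest adjusted p was 0.0794, for Psmb9 in wild type at 6 Gy. The change of each counterpart minus that of the constitutive gene, taken within arrays, was compared by a two-sided exact permutation test in 9 pairs of gene pair and irradiation comparison. Psmb9 minus Psmb6 shifted by 0.91 in wild type at 6 Gy (exact p = 0.0476, adjusted p = 0.167 over the 9 tests). Psmb10 minus Psmb7 shifted by -0.91 in wild type at 8.8 Gy (exact p = 0.0476, adjusted p = 0.167) and by -0.80 in Parp1-/- at 6 Gy (exact p = 0.0556, adjusted p = 0.167). The other 6 shifts had adjusted p from 0.257 to 0.825, so none of the 9 passed. The smallest p that these arrays allow is 0.00794.

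**Figure D2:**
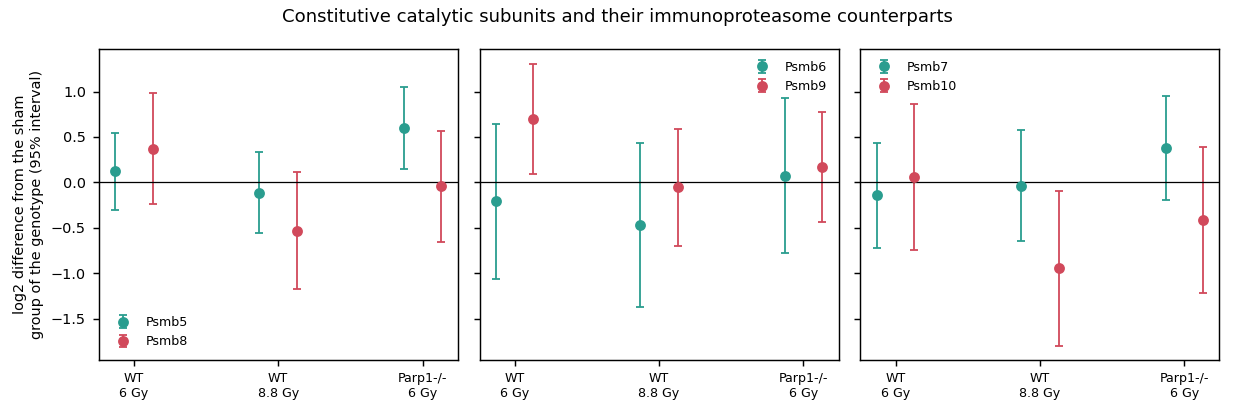
Log2 difference from the unirradiated group of the genotype, with its 95% interval, for the constitutive catalytic subunits and their immunoproteasome counterparts in wild type at 6 and 8.8 Gy and Parp1-/- at 6 Gy. The intervals of the members of a pair overlap in every panel, and only those of Psmb9 (0.70) and Psmb10 (-0.95) in wild type and Psmb5 (0.60) in Parp1-/- leave out 0.

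In the 19S cap, the 6 ATPases Psmc1 to Psmc6, which unfold the substrate, gave 0 calls in each irradiation comparison. Of all genes tested 26.4%, 16.1% and 22.9% passed. All 6 ATPase genes lay below 0 in wild type at 6 Gy, from -0.56 (Psmc2) to -0.22 (Psmc1), and at 8.8 Gy, from -0.61 (Psmc6) to -0.46 (Psmc2). In Parp1-/- they ran from -0.59 (Psmc5) to 0.11 (Psmc2), with 3 of 6 above 0. The lowest adjusted p of an ATPase gene was 0.135, at 8.8 Gy.

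Of the 11 non-ATPase cap genes, 1 passed in wild type at 6 Gy, 0 at 8.8 Gy and 3 (27.3%) in Parp1-/- at 6 Gy. Of all genes tested 26.4%, 16.1% and 22.9% passed, so the count in Parp1-/- is near that share. Psmd4 encodes the ubiquitin receptor known as Rpn10. It stood at 5.23, 6.48, 5.69, 6.44 and 6.00 in wild-type 0 Gy and at 4.90, 5.20, 5.00, 5.01 and 4.82 at 6 Gy. Every 6 Gy array was below every 0 Gy array, and the 6 Gy arrays lay close together (SD 0.144). Psmd4 fell by 0.98 on the log2 scale (SE 0.317, 1.97-fold, adjusted p = 0.0271). At 8.8 Gy it stood at 5.93, 5.47, 4.97 and 4.66, which overlapped the 0 Gy arrays, with a difference of -0.71 ± 0.336 and an adjusted p of 0.157.

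In Parp1-/- mice Psmd4 stood at 6.06, 5.78, 7.79, 6.73 and 6.40 at 0 Gy and at 5.43, 5.88, 5.18, 5.38 and 5.48 at 6 Gy. The groups overlapped by 1 array on each side, and 0 Gy replicate 3 was the highest of all 24 arrays. Psmd4 fell by 1.08 (SE 0.317, 2.12-fold, adjusted p = 0.0163). The difference between the genotypes' responses was -0.10 ± 0.448.

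Psmd4 moved with the erythroid marker score over the arrays, and Psme3 did so in part (given below). Parp1-/- 0 Gy replicate 3 had both the highest Psmd4 level and the highest erythroid score, and the 5 wild-type 6 Gy arrays had erythroid scores of 3.28 to 4.48 against 4.23 to 5.83 in the wild-type 0 Gy arrays. With the erythroid covariate the Psmd4 difference was -0.01 in wild type at 6 Gy (adjusted p = 0.983) and -0.15 in Parp1-/- (adjusted p = 0.671). The score itself fell with 6 Gy, from 5.20 to 3.83 in wild type and from 5.86 to 4.54 in Parp1-/-. Score and exposure therefore cannot be told apart in this fit, which was chosen after seeing the data. The part of erythroid cells in the fall was not tested. In wild type the call also ended with normexp background correction (-0.61, adjusted p = 0.0511) and without any 1 of 0 Gy replicates 2 and 4 and 6 Gy replicates 1 and 3, where the differences lay between -0.98 and -0.85. In Parp1-/- the Psmd4 call ended with quantile scaling (-0.70, adjusted p = 0.0574). On scan day 1 alone, the Parp1-/- difference (1 array against 2) was -0.44.

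**Figure D3:**
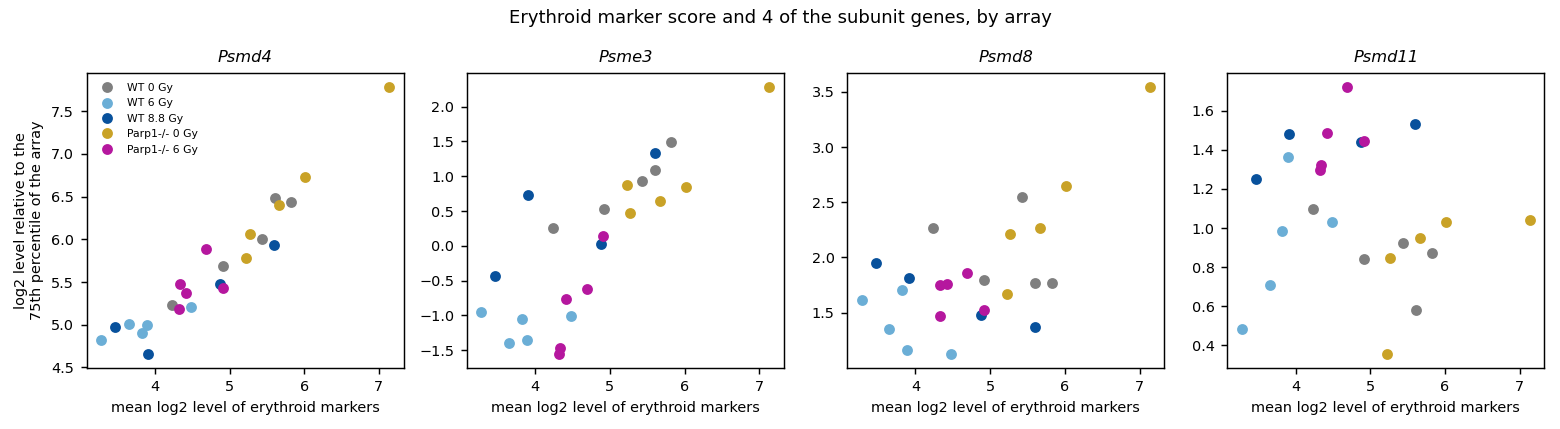
Log2 level of Psmd4, Psme3, Psmd8 and Psmd11 on each of the 24 arrays against the mean log2 level of the erythroid and reticulocyte markers, coloured by group. Psmd4 is highest (7.79) on the array with the highest erythroid score (7.14), and Psmd11 stands at 1.04 on that array.

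Psmd8, a lid subunit also called Rpn12, fell in Parp1-/- mice. It stood at 2.21, 1.67, 3.55, 2.65 and 2.26 at 0 Gy and at 1.52, 1.85, 1.75, 1.76 and 1.47 at 6 Gy. The groups overlapped through 0 Gy replicate 2, and 0 Gy replicate 3 was again the highest of all arrays. Psmd8 fell by 0.80 on the log2 scale (SE 0.263, 1.74-fold, adjusted p = 0.0320). Without 0 Gy replicate 3 the difference was -0.53 and the call ended. It also ended without 0 Gy replicate 4, without 6 Gy replicate 1 or 5, and with the erythroid covariate (-0.68, adjusted p = 0.141). Median centring (adjusted p = 0.0956), no filter on background (adjusted p = 0.0702) and slide as a random block (adjusted p = 0.0519) ended it too.

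In wild type Psmd8 stood at 2.27, 1.77, 1.79, 1.77 and 2.55 at 0 Gy, 1.70, 1.12, 1.16, 1.35 and 1.62 at 6 Gy, and 1.37, 1.48, 1.95 and 1.82 at 8.8 Gy. The 6 Gy arrays all lay below the 0 Gy arrays, with a difference of -0.64 ± 0.263 and an adjusted p of 0.0740, and the 8.8 Gy arrays overlapped them. On scan day 1 alone the Parp1-/- difference was -0.47.

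Psmd11, a lid subunit also called Rpn6 that stabilises the join of cap and core, rose in Parp1-/- mice. It stood at 0.85, 0.35, 1.04, 1.03 and 0.95 at 0 Gy and at 1.45, 1.72, 1.30, 1.49 and 1.32 at 6 Gy. All 6 Gy arrays lay above all 0 Gy arrays. Psmd11 was 0.61 ± 0.184 higher (1.53-fold, adjusted p = 0.0193). The call ended without 0 Gy replicate 2 (0.49) or 6 Gy replicate 2 (0.54), and with no filter on background (adjusted p = 0.0601).

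In wild type Psmd11 stood at 1.1, 0.58, 0.84, 0.87 and 0.93 at 0 Gy, 0.99, 1.03, 1.36, 0.71 and 0.48 at 6 Gy, and 1.53, 1.44, 1.25 and 1.48 at 8.8 Gy. The 6 Gy arrays overlapped the 0 Gy arrays, whereas the 8.8 Gy arrays all lay above them. The platelet markers (8 of 8 measured) ranged from 3.37 to 5.22, 3.27 to 5.67 and 5.07 to 6.21 in these groups, and from 4.14 to 5.14 and 5.32 to 6.24 in Parp1-/- at 0 and 6 Gy, so they too were high at 8.8 Gy and in irradiated Parp1-/- mice. Their part in the Psmd11 levels was not tested. The Psmd11 differences were 0.05 ± 0.184 at 6 Gy and 0.56 ± 0.195 at 8.8 Gy (adjusted p = 0.0520). The interaction of genotype and 6 Gy was 0.56 ± 0.260 with an adjusted p of 0.178. With the erythroid covariate the differences were 0.65 at 8.8 Gy (adjusted p = 0.0127) and 0.78 in Parp1-/- (adjusted p = 0.0111), and on scan day 1 alone the Parp1-/- difference was 0.72.

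The other 8 non-ATPase genes did not pass. In wild type at 6 Gy Psmd1 (-0.82, adjusted p = 0.0564) and Psmd6 (-0.80, adjusted p = 0.0993) were closest. At 8.8 Gy Psmd2, a large scaffold subunit of the cap base, had a difference of -1.08 ± 0.388 and an adjusted p of 0.06, and without the doubted 8.8 Gy replicate 4 the difference was -0.56. In Parp1-/- at 6 Gy Psmd2 had a difference of -0.81 with groups that did not overlap (adjusted p = 0.112). Psmd14, the deubiquitinase that removes the chain, had differences of -0.41, -0.59 and 0.08 in the same order of comparisons. Psmd13 varied least of all 34 genes, with differences of 0.03, 0.13 and 0.40.

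**Figure D4:**
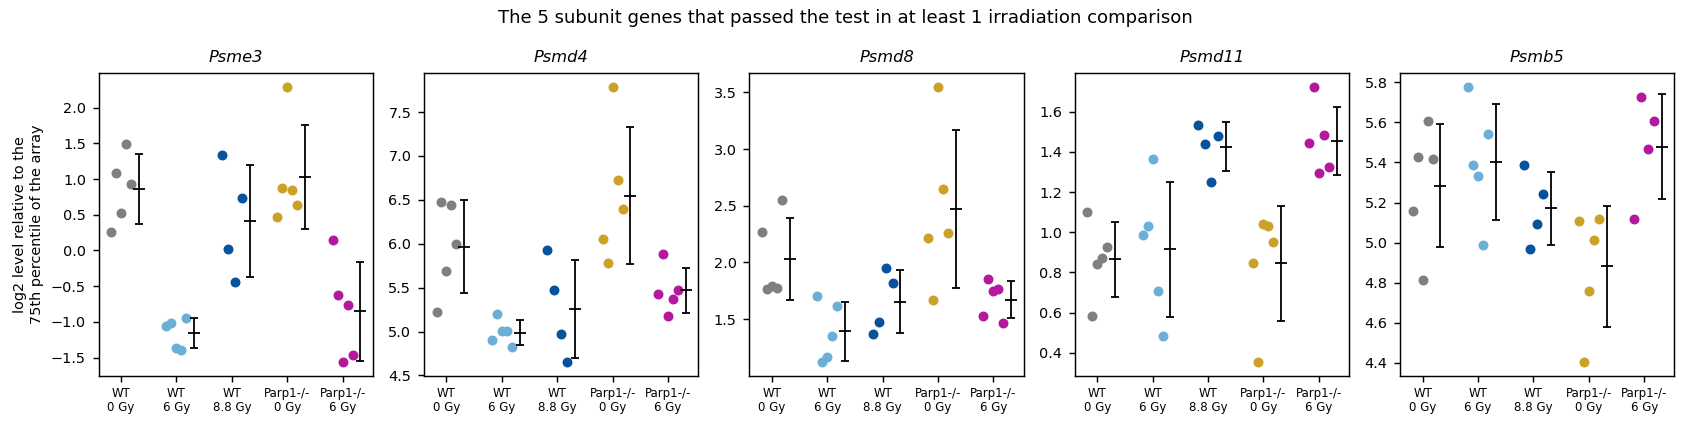
Log2 level on each array of the 5 genes that passed the test in at least 1 irradiation comparison, with the mean and SD of the group beside the points. Psme3 and Psmd4 lie low on the wild-type 6 Gy arrays, and Psmd11 lies high on the wild-type 8.8 Gy and Parp1-/- 6 Gy arrays.

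Of the PA28 genes, Psme3 gave the largest change among the 34. It encodes PA28-gamma, a nuclear activator of the core that forms rings of its own. Psme3 stood at 0.25, 1.09, 0.53, 1.5 and 0.93 in wild-type 0 Gy and at -1.06, -1.01, -1.36, -1.40 and -0.95 at 6 Gy. The groups were separated by more than 1 log2 unit. Psme3 fell by 2.01 on the log2 scale (SE 0.372, 4.03-fold, adjusted p = 0.000998).

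In Parp1-/- mice Psme3 stood at 0.47, 0.88, 2.29, 0.85 and 0.64 at 0 Gy and at 0.15, -0.62, -1.56, -0.76 and -1.47 at 6 Gy. The groups did not overlap, and the 6 Gy array nearest to the 0 Gy arrays was the doubted replicate 1. Psme3 fell by 1.88 (SE 0.372, 3.67-fold, adjusted p = 0.00111). The interaction was 0.13 ± 0.526 with an adjusted p of 0.886, and its 95% interval, -0.95 to 1.22, does not show that the genotypes responded alike.

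At 8.8 Gy in wild type Psme3 stood at 1.33, 0.02, -0.43 and 0.73, which overlapped the 0 Gy arrays and lay above every 6 Gy array. The difference from 0 Gy was -0.45 ± 0.395 (adjusted p = 0.467). The difference between 8.8 and 6 Gy, whose arrays were all scanned on day 3, was 1.57 ± 0.395 with an adjusted p of 0.104, and 0 of the 13051 genes passed in that comparison.

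The Psme3 falls at 6 Gy passed in each of the 24 fits that left out 1 array, between -2.16 and -1.85 in wild type and between -2.13 and -1.56 in Parp1-/-. With normexp background correction they passed but were smaller, -1.14 (adjusted p = 0.00177) and -1.03 (adjusted p = 0.00237). With the erythroid covariate they were also smaller, -1.05 (adjusted p = 0.0134) and -0.95 (adjusted p = 0.0415). Psme3 (2.29) and the erythroid score (7.14) were both highest on Parp1-/- 0 Gy replicate 3. Arrays ranked alike for both in wild-type 0 Gy and Parp1-/- 6 Gy, and not in the other groups. The part of erythroid cells in the Psme3 levels was not tested. With scan day as a block the Psme3 falls were -2.10 and -2.14 and neither passed, where 0.123% and 0.414% of all genes did. On scan day 1 alone the Parp1-/- difference was -2.14, from 1 array against 2. The block value in Parp1-/- rests on that same comparison and is no separate check.

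Psme1 and Psme2 encode the subunits of the cytoplasmic PA28 ring, which interferon-gamma induces. Psme1 differed by 0.29 ± 0.195 in wild type at 6 Gy, by -0.33 ± 0.207 at 8.8 Gy and by -0.45 ± 0.195 in Parp1-/- at 6 Gy, and Psme2 by 0.13, -0.57 and -0.34. None of these passed. With normexp background correction Psme1 did pass, as higher, in wild type at 6 Gy, where 24% of all genes passed. For Psme1 the 8.8 Gy arrays and the Parp1-/- 6 Gy arrays lay below all arrays of their unirradiated groups.

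Averaged over the genes with a value on every array, the 13 core genes had a mean level of 2.78 ± 0.328 (SD, n = 5) in wild-type 0 Gy, 2.61 ± 0.589 (n = 5) at 6 Gy and 2.38 ± 0.472 (n = 4) at 8.8 Gy. In Parp1-/- they averaged 2.46 ± 0.347 at 0 Gy and 2.55 ± 0.409 at 6 Gy (n = 5 each). The 17 cap genes averaged 2.29 ± 0.251, 1.82 ± 0.427 and 1.82 ± 0.333 in wild type and 2.04 ± 0.245 and 1.90 ± 0.277 in Parp1-/-, in the same order. Core and cap went up and down together from array to array: in every group except Parp1-/- 6 Gy the same array was highest and the same array lowest for both. The PA28 genes did not share that order, and in both unirradiated groups their lowest array was replicate 1, the highest for core and cap. In every group the array highest for core and cap also had the highest hepatocyte score (6.76, 6.04, 5.95, 6.27 and 5.77 in the same order). The array lowest for both had the lowest hepatocyte score only in wild type at 8.8 Gy. The part of hepatocyte RNA was not tested. Since core and cap genes moved together, the numbers of differences above or below 0 do not count independent genes.

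**Figure D5:**
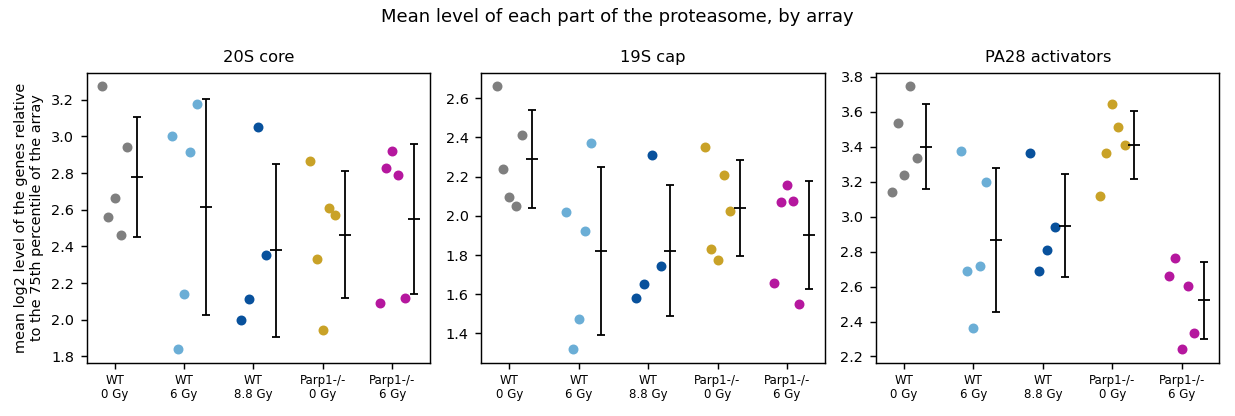
Mean log2 level of the core (13 genes), cap (17 genes) and PA28 (3 genes) on each array, with the mean and SD of each group beside the points. Core and cap means of the arrays overlap between all groups, while the PA28 means of Parp1-/- 6 Gy lie below those of Parp1-/- 0 Gy.

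Without irradiation, 0 of the 34 genes differed between Parp1-/- and wild type, where 0.682% of all genes tested passed (0.046% lower, 0.636% higher); 1 of the 34 (Psma3, -0.52) had an unadjusted p under 0.05. Of the differences 29 were below 0, with a median of -0.36 (-0.04 over all genes), and they ran from -0.62 for Psmd7 to 0.58 for Psmd4. No pair of groups was free of overlap among the 34 genes, against 5.95% of all genes. Between 36.6% and 41.8% of probes were well above background on the Parp1-/- 0 Gy arrays, against 42.8% to 57.1% on the wild-type 0 Gy arrays. These groups share no scan day, so genotype and day cannot be told apart, and with day as a block the median was 0.39.

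At 6 Gy, 0 of the 34 genes differed between the genotypes, where 1.04% of all genes passed (0.628% lower, 0.414% higher) and 3 of the 34 had an unadjusted p under 0.05. The differences ran from -0.73 for Psme1 (adjusted p = 0.0575) to 0.54 for Psmd11 (adjusted p = 0.0935), with a median of 0.02 (-0.05 over all genes). Between 8.8 and 6 Gy in wild type 0 of 34 passed, as did 0.0% of all genes, with 2361 genes and 4 of the 34 at an unadjusted p under 0.05. The lowest of these 34 differences was that of Psme2, at -0.70 (adjusted p = 0.240).

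The response to 6 Gy itself was compared between the genotypes by an interaction term. In that test 0 of the 34 genes passed, where 6.53% of all genes did (5.63% lower, 0.896% higher), and 2 of the 34, Psme1 and Psmd11, had an unadjusted p under 0.05. The median interaction was 0.28 (0.07 over all genes), and 27 of the 34 were above 0, that is, less negative or more positive in Parp1-/-. This direction was not kept with fixed blocks: blocking on slide gave a median of -0.075 and blocking on day -0.35. Either block rests the Parp1-/- response on the same 1 array against 2. The median ran from 0.14 to 0.44 when 1 array was left out. The interactions of the 34 genes ran from -0.74 for Psme1 (adjusted p = 0.0937) to 0.74 for Psmd6 (adjusted p = 0.374). The interval stayed within 1 log2 unit of 0 for only 6 of the 34 genes, so most of these differences could not be bounded with these arrays.

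Other genes of the pathway were described by list. Of 20 listed names of associated factors and regulators, synonyms included, 15 were tested; of these, 5 fell in wild type at 6 Gy, 3 fell and 1 rose at 8.8 Gy, and 4 fell and 2 rose in Parp1-/- at 6 Gy. Of all genes 10.7%, 8.87% and 10.6% were lower and 15.8%, 7.26% and 12.2% higher in these comparisons. The medians of the 15 were -0.35, -0.27 and -0.31. Usp14, a deubiquitinase docked on the cap, fell in all 3 comparisons, by 1.15 (adjusted p = 0.00439), 1.1 (adjusted p = 0.0101) and 1.47 (adjusted p = 0.000451). Vcp, the p97 unfoldase, fell by 1.28 in wild type at 6 Gy (adjusted p = 0.00617) and by 1.12 in Parp1-/- (adjusted p = 0.0113). Both were highest on Parp1-/- 0 Gy replicate 3, the array of the highest erythroid score.

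Psmf1, the proteasome inhibitor PI31, fell by 1.42 in wild type at 6 Gy (adjusted p = 0.00361) and was 1.45 higher in Parp1-/- than in wild type at 6 Gy (adjusted p = 0.0386). It stood at 2.61, 3.41, 2.79, 3.38 and 1.78 on the wild-type 6 Gy arrays and at 4.39, 4.52, 4.17, 4.0 and 4.15 on the Parp1-/- 6 Gy arrays, which did not overlap. The erythroid score averaged 3.83 and 4.54 in these groups. Psmf1 too was highest (5.46) on Parp1-/- 0 Gy replicate 3. It was lowest on wild-type 6 Gy replicate 5, the array of the lowest erythroid score (3.28). The part of erythroid cells in the Psmf1 levels was not tested. Ubqln1, a ubiquitin shuttle, fell in wild type by 1.02 at 6 Gy (adjusted p = 0.0359) and by 1.18 at 8.8 Gy (adjusted p = 0.0328). Without the doubted 8.8 Gy replicate 4 the latter difference was -0.56 and did not pass. The ubiquitin ligase Ube3c was well above background on 4 of the 5 wild-type 0 Gy arrays and on 0 of the 5 at 6 Gy, so it was at least 1.34-fold lower at 6 Gy. At 8.8 Gy it was measured on 2 of 4 arrays, and no size is given there. The limma test of the signals as measured gave adjusted p of 0.0106 and 0.0301. Ube3c met the filter only through the wild-type 0 Gy group. Its calls against that group, counted above, were favoured by the filter and lend no support.

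Nfe2l2 encodes NRF2, a stress-responsive transcription factor. It stood at 1.28, 1.27, 1.65, 1.56 and 0.98 in wild-type 0 Gy, 1.74, 0.91, 1.33, 1.58 and 1.16 at 6 Gy, and 2.26, 2.13, 1.85 and 2.11 at 8.8 Gy. It stood at 1.29, 1.19, 0.70, 1.32 and 1.54 in Parp1-/- 0 Gy and at 2.12, 2.35, 2.14, 2.07 and 2.01 at 6 Gy. The wild-type 8.8 Gy and Parp1-/- 6 Gy arrays all lay above their unirradiated groups, and the wild-type 6 Gy arrays overlapped theirs. Nfe2l2 rose by 0.74 in wild type at 8.8 Gy (adjusted p = 0.0166) and by 0.93 in Parp1-/- (adjusted p = 0.00155), with an interaction of 0.93 ± 0.272 (adjusted p = 0.0446).

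Ddi2, the protease that activates NRF1, fell by 0.97 in Parp1-/- (adjusted p = 0.0311), with an interaction of -1.53 (adjusted p = 0.0455). Both values turned above 0 with slide or scan day as a block. Either block rests the Parp1-/- response on the same 1 array against 2, so they are not separate checks. Nfe2l1, which encodes NRF1, was well above background on 6 arrays only.

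The calls among these regulators differed in how they stood up to leaving out 1 array. Those of Usp14, Vcp and Psmf1 against the unirradiated mice, of Nfe2l2 at 8.8 Gy and in Parp1-/-, and of Ube3c in wild type at 6 Gy passed in 24 of 24 fits. The Ubqln1 call passed in 19 fits at 6 Gy and in 21 at 8.8 Gy, and the Ube3c call at 8.8 Gy in 20. The limit that the filter sets on the Ube3c calls holds for these fits too. The Psmf1 difference between genotypes passed in 14 fits, the Nfe2l2 interaction in 9 and the Ddi2 call in Parp1-/- in 18, with 9 for its interaction.

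Of the 8 assembly chaperones tested of 9 listed, 1 passed, in wild type at 8.8 Gy, where 16.1% of all genes did. Psmg2 fell there by 1.64 (adjusted p = 0.0451), measured on 3 of the 4 arrays. Without the doubted replicate 4 the difference was -0.96 and did not pass. The call passed in 10 of 24 fits without 1 array. Of 5 ubiquitin and E1 genes tested of 6 listed, 1 passed in each of 2 comparisons, where 16.1% and 22.9% of all genes did. It was Rps27a, which encodes ubiquitin fused to a ribosomal protein. It fell by 1.13 in wild type at 8.8 Gy (adjusted p = 0.00294) and by 0.67 in Parp1-/- (adjusted p = 0.0316), calls that passed in 24 and 19 of the 24 fits without 1 array, whereas Ubb, a polyubiquitin gene, did not pass. Psma8 and Psmb11, the testis and thymus subunits, were well above background on 2 and 0 arrays and were not tested.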

How the data were processed

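Whole-blood RNA of 24 mice was measured on 1-colour Agilent arrays. The deposited scanner files hold spot intensity values on a linear scale, made with Agilent Feature Extraction 11.5.1 per the file headers and the submitters' processing notes; the headers name mm9. The authors' deposited table holds log2 values, 98.9% to 99.8% of the values of each column lying within 0.01 of the log2 processed signal plus a constant; its probe selection and empty cells are not explained in the sources used here. Here the processed signal was taken to log2, outlier spots were dropped, saturated spots kept and each array's 75th percentile subtracted. Spots of a probe were averaged and the brightest probe stood for a gene. Of 39429 probes, 27502 were named through RefSeq (GRCm38.p6) accessions and 5753 by the array files. Tested were the 13051 of 24325 genes that the scanner called above background on 4 or more arrays of a group.

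Limma 3.58.1 in R 4.3.3 (tested on simulated data) fitted 5 group means over 24 arrays, two-sided, in 7 comparisons, with a threshold of 0.05 on p adjusted over all genes tested (Benjamini-Hochberg). The number of arrays limits the precision. SE is the moderated standard error, and intervals are 95%. A probe not well above background in a whole group gives a bound: the brighter group's mean against, per array, either its own signal or the lowest one above background, whichever was larger. Members and lists were chosen with earlier results of these data known. Named genes are, per comparison, the up to 5 members called with the largest change, the catalytic subunits and their counterparts, and up to 4 called genes of each other list; other genes named were chosen after their values were seen. Some genes that this rule names are not reported here. Alternatives were median centring, quantile scaling, normexp (offset 50), the authors' table, both filters, probe means, slide and scan day blocks, a replicate block, marker covariates and leaving out arrays. Replicate numbers did not pair the arrays: 46 same-numbered pairs had correlations of their deviations from -0.77 to 0.75 (median -0.045).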

Additional observations from a re-analysis of the deposited data

Results flagged for a closer look

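In 7 of 170 groups of 4 or 5 arrays, 1 array lay far from the others of its group by Dixon's criterion; chance alone gives about 1 in 20. Parp1-/- 0 Gy replicate 3 stood apart for 3 genes: low for Psmb1 (1.455, others 2.341 to 2.592) and Psmd14 (-2.171, others -0.96 to -0.62) and high for Psme3 (2.288, others 0.468 to 0.878). It was also the array of the highest erythroid score, 7.14. Parp1-/- 0 Gy replicate 2 was low for Psmd11 (0.355, others 0.848 to 1.04). Wild-type 8.8 Gy replicate 3 was high for Psmb7 (2.317, others 1.22 to 1.37) and Psmc3 (4.78, others 4.25 to 4.32). Wild-type 8.8 Gy replicate 2, one of the nearly equal arrays, was low for Psmd13 (2.159, others 2.55 to 2.56). The Psme3 fall in Parp1-/- passed without replicate 3 as well, while the Psmd8 fall did not.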

How the results depend on the processing

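Median centring gave 23, 2 and 3 calls among the 34 genes in wild type at 6 and 8.8 Gy and Parp1-/- at 6 Gy. Of all genes 48.4%, 18.5% and 21.2% passed there. It gave 5, 2 and 5 calls in the genotype comparison at 6 Gy, 8.8 against 6 Gy and the interaction. Of all genes 30.7%, 14.5% and 32.5% passed there. Medians were -1.07 (wild type at 6 Gy), 0.69, 0.32 and 1.18, against -0.78, 0.62, 0.42 and 0.97 over all genes. Median centring turned Psmb5 (-0.71), Psmd11 (-0.78) and Psmd13 (-0.79) below 0 in wild type at 6 Gy. The erythroid covariate gave 21 and 23 calls in wild type (medians -0.85 and -0.82), 2 between genotypes at 6 Gy and 1 between doses. Of all genes 49.7%, 38.3%, 19.4% and 12.9% passed in these comparisons. The erythroid covariate also gave a median of -0.61 in Parp1-/- at 6 Gy, and turned Psmd12 there to -0.81. A fixed block for the slide or for the day of scanning left 0 calls: 0 passed in wild type and Parp1-/- at 6 Gy; the Parp1-/- median was -0.54 with either, the interaction median -0.075 (slide) and -0.35 (day), and the sham genotype median 0.39 (day). Ddi2 turned to 0.43 (authors' table) and 0.45 (either block) in Parp1-/-, and its interaction to 0.34, 0.100 (slide) and 0.048 (day). Either block rests the Parp1-/- response on the same 3 arrays of slide 9 and day 1: 6 Gy replicate 5 against 0 Gy replicates 1 and 2. Shares of all genes are in brackets in what follows. At 8.8 Gy 1 gene passed: Psmd2, lower, with quantile scaling (15.4%) or normexp (15.4%), but Psmd11, higher, with probe means (16.2%). Genes detected on all arrays gave 2 (21.5%) and the hepatocyte covariate 3 (23.7%). In Parp1-/- 2 passed in the authors' table (32%) or with no filter (9.9%), and 3 with slide as a random block (19.9%). In wild type at 6 Gy normexp called Psmd8 and Psme3 lower and Psme1 higher (24%). At 6 Gy between genotypes Psme1 passed, lower in Parp1-/-, with quantile scaling (2.81%), normexp (0.743%), the random block (4.27%) or the hepatocyte covariate (10.8%). Between doses 1 passed: Psme3, higher at 8.8 Gy, with quantile scaling (1.05%), the authors' table (1.85%) or that covariate (4.7%). With normexp (0.759%) it was Psme1, lower at 8.8 Gy. In the interaction 1 passed with normexp (1.81%), again Psme1, below 0. The cause of these shifts was not tested. Leaving out 1 array gave 1 to 4 calls in wild type at 6 Gy, 0 to 2 at 8.8 Gy, 3 to 5 in Parp1-/-, 0 between genotypes at 0 Gy, 0 to 1 at 6 Gy, 0 between doses and 0 to 1 in the interaction. In the same order, medians ran from -0.42 to -0.14, -0.68 to -0.33, -0.14 to 0.11, -0.47 to -0.21, -0.16 to 0.15, -0.35 to 0.01 and 0.14 to 0.44. Over wild type at 6 and 8.8 Gy and Parp1-/- at 6 Gy, Psmb8 minus Psmb5 ran from 0.11 to 0.39, -0.57 to -0.28 and -0.89 to -0.49, Psmb9 minus Psmb6 from 0.64 to 1.1, 0.12 to 0.63 and -0.32 to 0.36, and Psmb10 minus Psmb7 from -0.15 to 0.54, -1.13 to -0.73 and -1.07 to -0.64. With the replicate number as a block the counts were 2, 0 and 5, as without it, where 23.8%, 11.8% and 20.1% of all genes passed. The median at 8.8 Gy was then -0.46. The replicate block changed no count of the 34 genes. Psmd14 and the dim factor Ube3c are limited by signal over background.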
